A study of Canis lupus familiaris with 25 samples.

Results

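Genes of the G1 checkpoint were compared between hepatoid gland adenoma (HGA), a benign perianal tumor of the dog, and apocrine gland anal sac adenocarcinoma (AGASAC), a malignant tumor of the anal sac. The 9 genes were CDKN1A, CDKN1B, CDKN1C, CDKN2C, RB1, MDM2, CCND1, CCND2 and CCND3, out of 24532 genes in the deposited count table. The table listed 8 of them by symbol, and CDKN1C was found under the locus number that RefSeq gives for its gene ID. The samples were 10 HGA, 11 primary AGASAC and 4 metastases of the primary tumors 1 to 4, which the labels place in a sublumbal lymph node. All were archival, formalin-fixed, paraffin-embedded (FFPE) tissue of dogs of many breeds, and no sample carried a transgene or an experimental treatment. HGA came from 6 intact and 4 neutered dogs, 5 female and 5 male, aged 8 to 14 years. Primary AGASAC came from 2 intact and 9 neutered dogs, 5 female and 6 male, aged 8 to 12.5 years. The metastases came from 1 intact and 3 neutered dogs, 2 female and 2 male, aged 8 to 10 years.

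A cell commits to division in G1, where D cyclins (CCND1, CCND2 and CCND3) bind the kinases CDK4 and CDK6 and phosphorylate the retinoblastoma protein (RB1), which otherwise holds back E2F transcription factors. The proteins p21 (CDKN1A), p27 (CDKN1B) and p57 (CDKN1C) inhibit cyclin-dependent kinases, and p18 (CDKN2C) is an INK4 inhibitor that binds CDK4 and CDK6 directly. MDM2 encodes a ubiquitin ligase, which marks other proteins for degradation. D cyclins can stand in for one another in many tissues, and which of them a cell uses differs between cell types.

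QuantSeq 3′ reads about 1 fragment per transcript near its 3′ end, so a count did not have to be divided by gene length before genes were set side by side. Differences in priming and mapping between genes were not tested. Values of single samples are CPM (counts scaled to the same total in each sample) with TMM factors over all 25 samples. Genes were tested with the quasi-likelihood method of edgeR, and adjusted p stands for the Benjamini-Yekutieli value over all genes tested. A gene counted as called where that value was 0.05 or less and the log2 fold change (log2FC) was 1 or more either way. Total counts were 1562347 to 6389555 in HGA, 2581453 to 4218340 in primary AGASAC and 2857541 to 3289546 in the metastases. The share of RNA fragments over 200 nucleotides was 70.5% to 92.7%, 70.2% to 84.4% and 71.8% to 82.9% in the same order. Markers of squamous and sebaceous epithelium (5 of 5 listed genes found) summed to 4124 to 15036 CPM in HGA and 1.01 to 26.4 CPM in primary AGASAC. Those of glandular epithelium (5 of 5) summed to 289 to 638 CPM in HGA and 4973 to 9391 CPM in primary AGASAC, so the epithelial markers matched the labelled tumor types. Endothelial markers (5 of 5) summed to 193 to 547 CPM in HGA and 48.9 to 226 CPM in primary AGASAC. Skeletal muscle markers (6 of 6) had a median of 3.99 CPM (0.424 to 25.1) in HGA and 116 CPM (4.37 to 819) in primary AGASAC. T cell markers (6 of 6) had medians of 7.82 CPM (2.45 to 48.9) and 25.0 CPM (16.7 to 113). Lymph node stroma markers (4 of 5) had medians of 45.4 CPM (12.5 to 150) and 8.17 CPM (0.729 to 26.2). The stroma sum of HGA was mostly CCL21, with means of 57.7 CPM in HGA and 3.01 CPM in primary AGASAC. CR2 was also higher in HGA (means 2.32 and 0.483 CPM). CCL19 (2.99 and 4.41 CPM) and CXCL13 (0.827 and 1.62 CPM) were lower, so the list had no common direction. The part of these cells in the differences between the tumor types was not tested. In bulk tissue, a different number of cells of a type and a different amount of RNA per cell cannot be told apart.

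The D cyclins differed most between the tumor types, CCND1 in one direction and CCND2 and CCND3 in the other. CCND1, often present in extra copies in human cancers, ranged from 24.8 to 98.0 CPM in HGA (median 45.0) and from 121 to 1198 CPM in primary AGASAC (median 508). No HGA reached the lowest primary AGASAC, and the difference was 10.4-fold, lower in HGA (log2FC −3.38, SE 0.37, adjusted p = 9.41e-07). CCND2 ranged from 10.5 to 540.1 CPM in HGA (median 153) and from 6.32 to 34.5 CPM in primary AGASAC (median 12.4). It was 12.7-fold higher in HGA (log2FC 3.66, SE 0.42, adjusted p = 1.66e-06), with 9 of 10 HGA above every primary AGASAC and HGA 4 inside the AGASAC range. CCND3 ranged from 37.8 to 755.6 CPM in HGA (median 55.9) and from 6.03 to 40.1 CPM in primary AGASAC (median 13.1). It was 8.60-fold higher in HGA (log2FC 3.1, SE 0.55, adjusted p = 5.76e-04). The groups overlapped at a single pair of samples, HGA 10 at 37.8 CPM and AGASAC primary 9 at 40.1 CPM. HGA 4, at 755.6 CPM, set the size of the CCND3 difference. Without HGA 4 the log2FC of CCND3 was 1.87 (SE 0.26, adjusted p = 3.89e-05). Over all 34 alternatives it was 1.87 to 3.68, with an adjusted p of 1.41e-07 to 0.859, and the call was lost in 4.

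**Figure D1:**
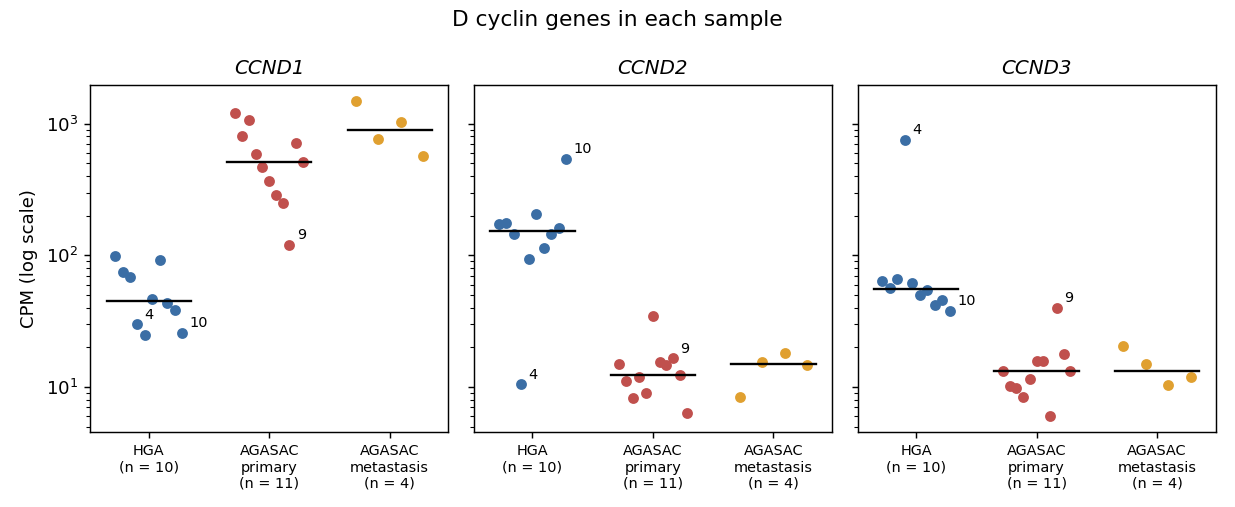
CCND1, CCND2 and CCND3 in CPM on a log axis for each of the 25 samples, grouped as HGA, AGASAC primary and AGASAC metastasis. Black lines are group medians and numbers mark HGA 4, HGA 10 and AGASAC primary 9. CCND1 was lower in every HGA than in every AGASAC sample, while HGA 4 had the highest CCND3 (755.6 CPM) and the lowest CCND2 of the HGA (10.5 CPM).

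Of the 9 genes, 3 were called, against 25.1% of the 12070 genes tested. CCND1 was the 1 called lower in HGA, where the share over all genes was 12.5%, and CCND2 and CCND3 were the 2 called higher, where it was 12.6%. The groups did not overlap for CCND1 alone, against 9.13% of all genes tested. Library size alone in place of TMM shifted the median log2FC of all genes from −0.03 to −0.33 and the split of called genes from 1523 higher and 1509 lower in HGA to 1053 higher among 3209 called, and the same 3 genes kept their directions and calls. Within single RNA extraction batches of 2 or 3 tumors a type, the directions of the 3 held in batches 5, 6 and 8, with log2FC of −3.67, −2.83 and −3.54 for CCND1, 2.98, 2.71 and 3.79 for CCND2 and 3.68, 2.37 and 2.2 for CCND3. Only CCND2 in batch 8 was called there, with 0, 0 and 1 genes of the 9 called in the 3 batches, and batch 7 held 1 tumor of each type. Batch 5 held HGA 4, so its CCND3 value includes the 755.6 CPM of that tumor. With the batch as a term, all 3 were called, at −3.21, 3.16 and 2.89. The series of sequencing file names was largely tied to tumor type, as most primary AGASAC were of the second series. Within the first, of 9 HGA and 3 primary AGASAC, CCND1 and CCND2 were called and CCND3 was not.

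The make-up of the D cyclin counts needs no scaling between samples. It is computed from the same counts of the 3 genes, so it restates their differences in another form and is no separate support. CCND1 made up 18.6% ± 10.2 (SD, n = 10) of the D cyclin counts in HGA, from 3.78% in HGA 4 to 35.3% in HGA 7. It made up 92.4% ± 8.75 (SD, n = 11) in primary AGASAC, from 68.0% in AGASAC primary 9 to 98.3% in AGASAC primary 3. The difference was −73.9 percentage points (permutation test, two-sided, 100000 resamples, p = 4e-05), and no HGA reached the lowest primary AGASAC. In HGA the leading D cyclin was CCND2, with a mean share of 54.3% ± 22.6 (SD, n = 10), and CCND3 held 27.1% ± 24.8 (SD, n = 10). In primary AGASAC these shares were 3.45% ± 3.06 and 4.13% ± 6.25 (SD, n = 11). The total of the 3 genes overlapped between the types, at 181 to 796 CPM in HGA (median 291) and 177 to 1227 CPM in primary AGASAC (median 527), and was not tested.

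**Figure D2:**
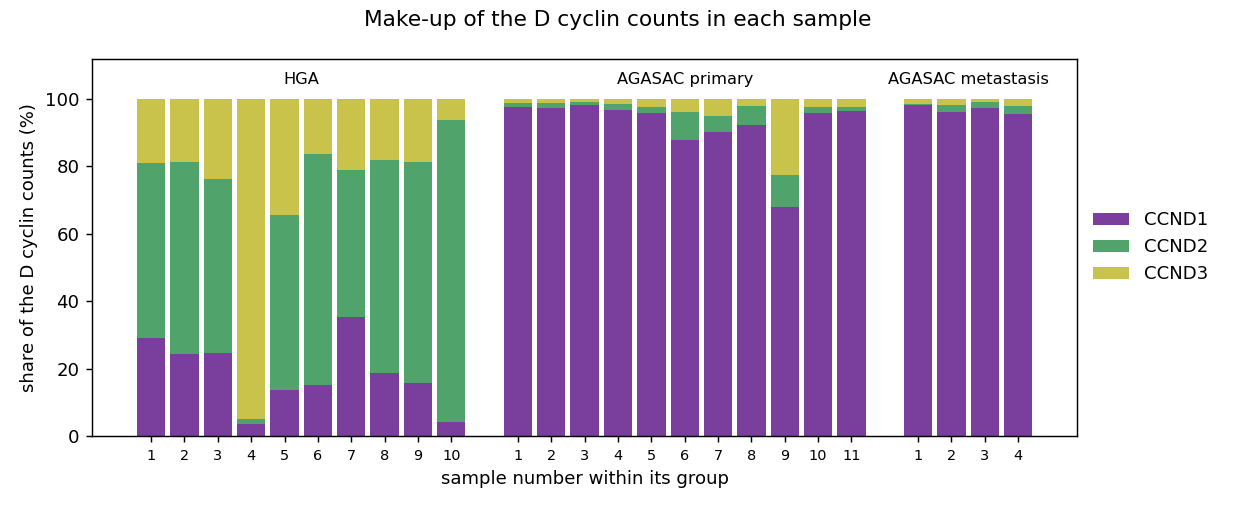
Share of CCND1, CCND2 and CCND3 in the summed D cyclin counts of each sample, in percent, as stacked bars by group. CCND1 filled 68.0% to 98.3% of the bar in primary AGASAC and 3.78% to 35.3% in HGA, where CCND2 led in 9 of 10 tumors and CCND3 in HGA 4.

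A pair of HGA and a single AGASAC stood apart in these shares. In HGA 4, CCND3 made up 94.9% of the D cyclin counts (95% Wilson interval 93.6% to 96.0%) and CCND2 1.31% (0.821% to 2.09%). In HGA 10, CCND2 made up 89.5% (87.7% to 91.0%), with 540.1 CPM against 10.5 to 207 CPM in the other 9 HGA. In AGASAC primary 9, which had the least CCND1 of the AGASAC (121 CPM), CCND3 made up 22.6% (19.5% to 26.1%). These intervals cover counting error only. HGA 4 and HGA 10 were also the HGA with the highest mean of 22 replication and mitosis genes on the log2(CPM + 1) scale, at 4.25 and 4.98, against 2.28 to 3.04 in the other 8 HGA and 3.81 to 5.2 in primary AGASAC. Whether that mean has a part in the D cyclin values was not tested. HGA 4 had the lowest total count of all samples (1562347), and HGA 10 was the only HGA of extraction batch 9 and of the second series of sequencing file names. With both left out, the CCND1 share in HGA was 22.2% and its difference to primary AGASAC −70.2 percentage points (exact permutation test, two-sided, p = 2.65e-05), and the log2FC were −3.22 for CCND1, 3.45 for CCND2 and 1.92 for CCND3, all called.

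The high CCND3 of HGA 4 was shared by the genes next to it. In the RefSeq gene order of the assembly UU_Cfam_GSD_1.0, genes with a median of at least 10 CPM in the other 9 HGA were taken, and HGA 4 was set against that median. From TOMM6, at position −3 from CCND3, to ENPP5, at position 33, 36 of 37 genes had a log2 ratio of at least 1, with a median of 3.24. Over all 9179 such genes, 707 (7.70%) did, with a median of −0.14. This run was seen in the values and then counted, so it has no test. VEGFA, which encodes an endothelial growth factor, had 1142 CPM in HGA 4 against 10.8 to 122 CPM in the other HGA. HSP90AB1, a chaperone gene, had 8008 CPM against 1030.2 to 1644 CPM. The exception was DLK2, at 27.7 CPM against 5.59 to 67.5 CPM. CDKN1A lies at position −17 in the same order and was at 46.1 CPM in HGA 4, with a log2 ratio of −0.02 to the other HGA. DNA copy number was not measured in these libraries. For CCND2 and CDKN1C, both low in HGA 4, the median log2 ratio of the 20 nearest genes was −0.44 and −0.58. Of these 20 genes, 6 and 7 were at −1 or below. CDKN1B was high in HGA 4, with a log2 ratio of 0.88. Its 20 nearest genes had a median of −0.54, with 6 at −1 or below. The share of all genes at −1 or below was not computed, so these counts have no background. In HGA 10, 12 of the 20 nearest genes of CDKN2C were at −1 or below, while CDKN2C itself had a log2 ratio of 0.99.

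**Figure D3:**
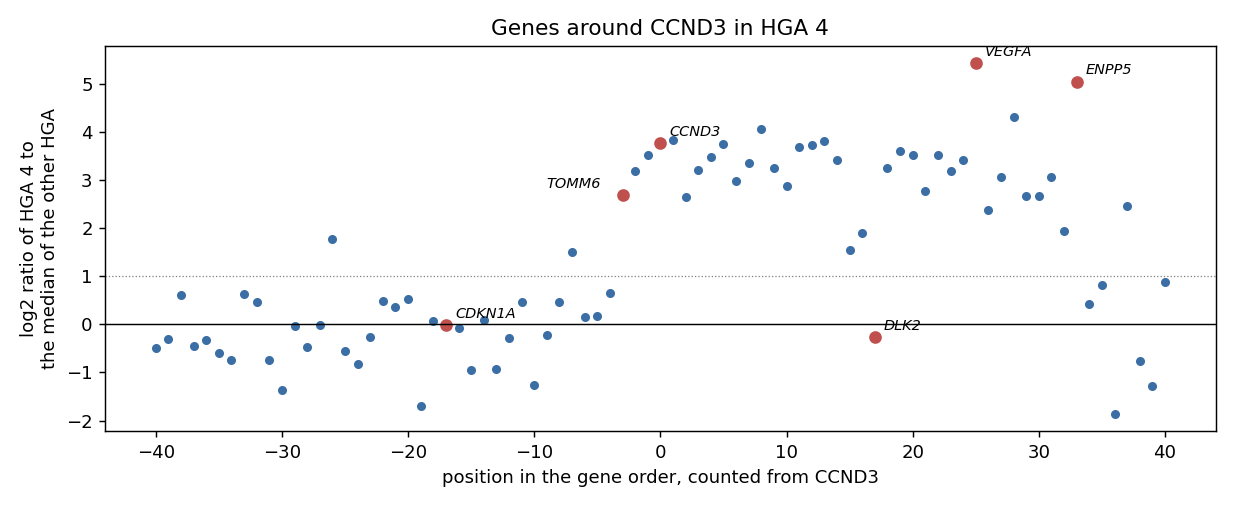
Log2 ratio of CPM + 1 in HGA 4 to the median of the other 9 HGA, for the genes around CCND3, ordered as in RefSeq and counted from CCND3 at position 0. Ratios lie between −1.70 and 1.76 up to position −4, at 1.53 to 5.42 from TOMM6 to ENPP5 except for DLK2, and CDKN1A, at position −17, is at −0.02.

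Among the kinase inhibitor genes, none was called between HGA and primary AGASAC. CDKN1C, the gene of p57, came closest. It ranged from 1.23 to 133 CPM in HGA (median 44.4) and from 14.0 to 28.9 CPM in primary AGASAC (median 20.8), so the wide HGA range held all the AGASAC values. The log2FC was 1.27 (SE 0.41, 95% interval 0.42 to 2.11, adjusted p = 0.138). The 3 lowest HGA were HGA 4 with 1.23 CPM, from 2 counts, HGA 10 with 9.46 CPM and HGA 2 with 14.0 CPM, and the other 7 had 39.4 to 133 CPM. CDKN1C was called at 1.41 without HGA 4 (adjusted p = 0.00937), at 1.39 without HGA 10 (adjusted p = 0.0480) and at 1.56 without both (adjusted p = 6.49e-04). With all samples it was also called under Benjamini-Hochberg adjustment (adjusted p = 0.0138), so the call depended on the adjustment as well as on these HGA. Its adjusted p over 33 alternatives ran from 6.49e-04 to 1, and the values of 1 came from subsets of the samples.

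The other CDK inhibitors differed by less than the spread within the types. CDKN1A ranged from 20.9 to 145 CPM in HGA (median 46.4) and from 25.0 to 96.6 CPM in primary AGASAC (median 40.2), with a log2FC of 0.05 (95% interval −0.59 to 0.69, adjusted p = 1). HGA 2 alone lay above the AGASAC range. CDKN1B ranged from 69.6 to 213 CPM in HGA (median 122) and from 21.1 to 200 CPM in primary AGASAC (median 101), with a log2FC of 0.32 (95% interval −0.39 to 1.02, adjusted p = 1). The 4 lowest values, 21.1 to 46.9 CPM, were all of AGASAC. CDKN2C ranged from 13.2 to 48.5 CPM in HGA (median 29.3) and from 11.4 to 46.2 CPM in primary AGASAC (median 22.8), with a log2FC of 0.21 (95% interval −0.40 to 0.82, adjusted p = 1).

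RB1 and MDM2 varied over narrower ranges within each type. RB1 ranged from 25.5 to 57.2 CPM in HGA (median 40.4) and from 31.1 to 81.7 CPM in primary AGASAC (median 48.2), with a log2FC of −0.37 (95% interval −0.78 to 0.04, adjusted p = 1). MDM2 ranged from 49.8 to 86.3 CPM in HGA (median 69.5) and from 66.6 to 103 CPM in primary AGASAC (median 76.9), with a log2FC of −0.21 (95% interval −0.46 to 0.04, adjusted p = 1). The intervals of CDKN1A, CDKN2C, RB1 and MDM2 all end short of a log2FC of 1 in either direction, and that of CDKN1B reaches just past it. With library size alone, MDM2 was at −0.50 (adjusted p = 0.0117) and still short of the fold threshold, under a scaling that put the median of all genes at −0.33.

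**Figure D4:**
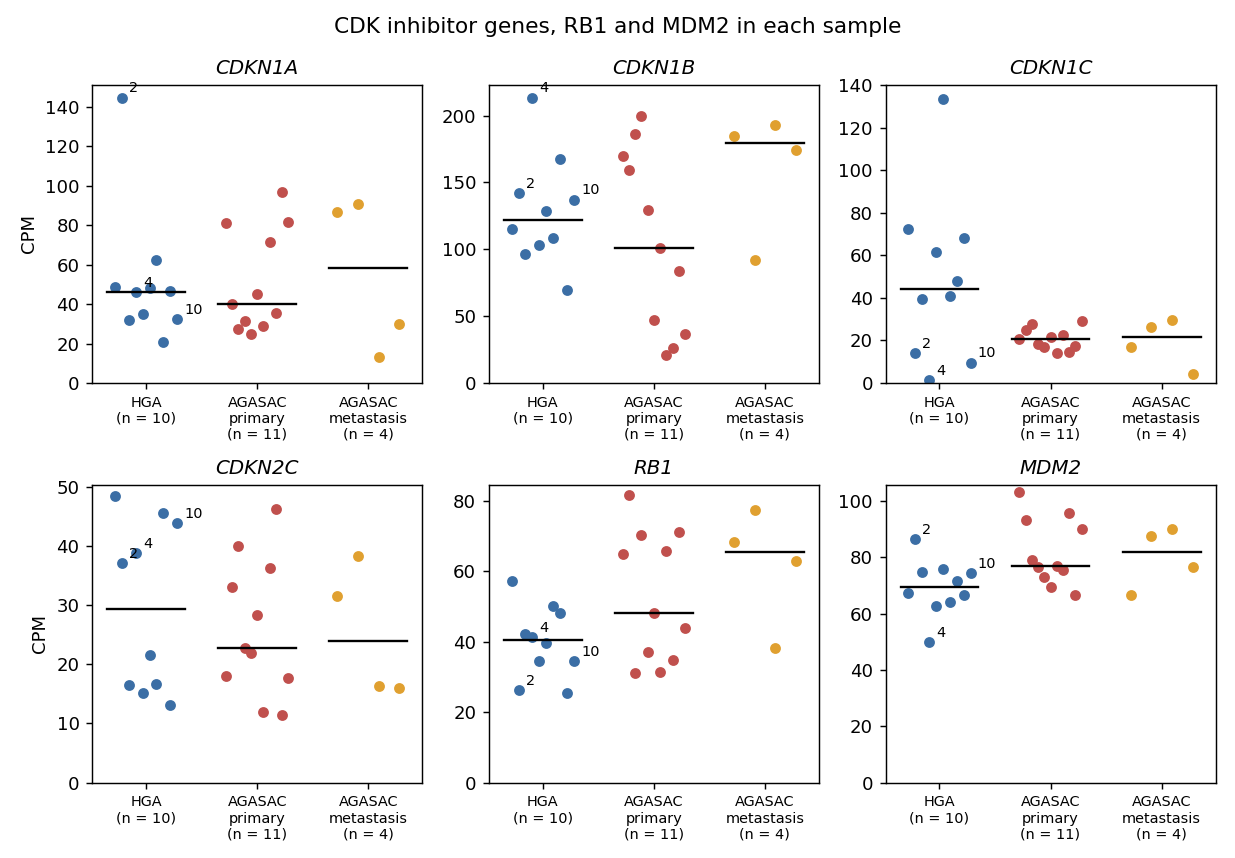
CDKN1A, CDKN1B, CDKN1C, CDKN2C, RB1 and MDM2 in CPM for each of the 25 samples by group, with medians as black lines and HGA 2, HGA 4 and HGA 10 numbered. The groups overlap in all 6 panels, and CDKN1C runs from 1.23 to 133 CPM in HGA but only from 14.0 to 28.9 CPM in primary AGASAC.

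In the metastases, as in the primary tumors, CCND1 was the most abundant D cyclin. CCND1 was at 1494, 761, 1032 and 566 CPM in metastases 1 to 4, against 1198, 808, 1061 and 590 CPM in the primary tumors of the same dogs. CCND2 was at 8.44, 15.4, 18.0 and 14.7 CPM, and CCND3 at 20.4, 14.9, 10.3 and 11.8 CPM. The CCND1 of metastasis 1 was the only one of these 12 values outside the range of the 11 primary tumors. CDKN1A was at 86.9, 90.7, 13.2 and 29.7 CPM in the metastases and at 81.4, 40.2, 27.3 and 31.7 CPM in the primary tumors, and metastasis 3 had the lowest value of all 25 samples. Of the 9 genes, 0 were called between metastasis and primary, and 0 of the 12629 genes tested (0%). At an unadjusted p under 0.05 the counts were 0 of the 9 genes and 1.15% of all genes, and DESeq2 called 12 genes, with 0 of the 9 among them. The log2FC of the 9 genes ran from −0.25 (CDKN1C) to 0.46 (CCND3, 95% interval −0.21 to 1.14), and the widest interval, of CDKN1A, was −1.05 to 1.63. These counts and intervals come from fits that did not pair the samples by dog. With the dog as block in edgeR, 1 of the 12629 genes was called and 0 of the 9. An unadjusted p under 0.05 was then found for 491 genes, with 0 of the 9 among them. T cell markers (6 of 6 found) summed to 39.9, 44.3, 63.0 and 44.4 CPM in metastases 1 to 4. In the primary tumors of the same dogs they summed to 25.0, 28.4, 21.1 and 41.4 CPM. Lymph node stroma markers (4 of 5) summed to 7.79, 9.02, 14.8 and 16.0 CPM against 4.52, 8.17, 1.48 and 6.67 CPM. B cell markers (6 of 6) were also higher in each metastasis, though by little in dog 1 (41.9 and 41.6 CPM). Over all primary tumors, T cell markers summed to 16.7 to 113 CPM and stroma markers to 0.729 to 26.2 CPM. Skeletal muscle markers (6 of 6) summed to 0.324 to 1.61 CPM in the metastases and 4.37 to 819 CPM in all primary tumors. The part of these cells in the comparison was not tested. On simulated counts of this design, 0 of 194 genes changed by a log2FC of 2 were called, and 163 of 192 changed by 4. That simulation had no pairing by dog, so it limits only the test without the dog as block.

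The CCND1 share fell in 3 of 4 dogs, by little. It was 98.1%, 96.2%, 97.3% and 95.5% in the metastases and 97.7%, 97.4%, 98.3% and 96.7% in the primary tumors of dogs 1 to 4. The mean difference of −0.75 percentage points did not pass the exact permutation test (two-sided, p = 0.286, smallest possible 0.0286). By dog, the exact sign-flip test gave p = 0.25 (smallest possible 0.125).

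Between HGA and metastases, a comparison that shares the HGA with the first, CCND1 was 17.4-fold lower (log2FC −4.12, SE 0.35, adjusted p = 3.62e-06) and CCND2 12.7-fold higher in HGA (log2FC 3.66, SE 0.70, adjusted p = 0.00755). CCND3 was at 3.15 (SE 0.92, adjusted p = 0.147) although the groups did not overlap. Without HGA 4 it was called at 1.91 (SE 0.24, adjusted p = 2.82e-04), and over 20 alternatives its adjusted p ran from 1.30e-04 to 0.486. In all, 2 of 9 genes were called against 16.1% of 13195 genes, and 2 of 9 did not overlap, again against 16.1%. Of the other 6 genes, 5 had log2FC from −0.60 (RB1, 95% interval −1.10 to −0.10, adjusted p = 0.642) to 0.25 (CDKN2C), and CDKN1C was at 1.35 (95% interval −0.23 to 2.92, adjusted p = 1).

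**Figure D5:**
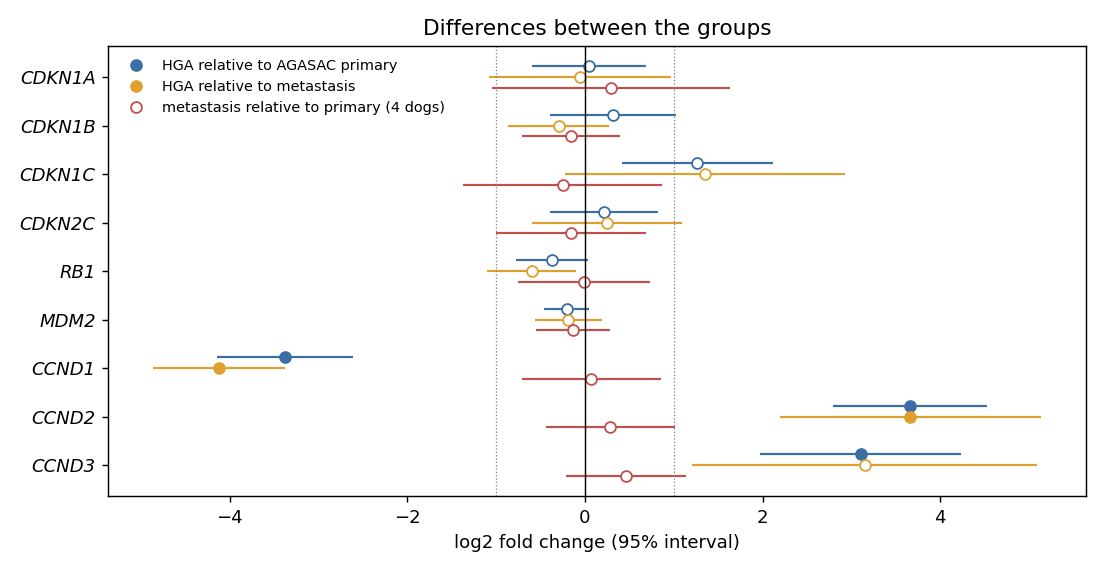
Log2FC of the 9 genes with 95% intervals for HGA relative to primary AGASAC, HGA relative to metastasis and metastasis relative to the primary tumor of the same 4 dogs. Filled points are called genes, and dotted lines mark a log2FC of 1 either way. The D cyclins lie beyond those lines in both comparisons with HGA, and no gene of the third comparison is called.

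Within HGA, the labels gave whether the dog was neutered but no hormone level. Between 6 intact and 4 neutered dogs, 0 of the 9 genes were called, as were 0 of 11906 genes (0%). At an unadjusted p under 0.05 there were 1 of 9 genes and 9.8% of all genes, and DESeq2 called 25 genes, with 0 of the 9. The 1 gene was CDKN2C, at 48.5, 37.1, 45.6 and 43.9 CPM in the neutered dogs and at 13.2 to 38.7 CPM in the intact ones (median 16.6). Its log2FC was −1.12 (SE 0.32, unadjusted p = 0.00421, adjusted p = 1), and the overlap came from HGA 4 alone. Without HGA 4 the log2FC was −1.41 (unadjusted p = 8.19e-05, adjusted p = 1). Of the neutered dogs 3 were female and 1 male, and of the intact ones 2 were female and 4 male. The mean of the replication and mitosis genes was 2.81 to 4.98 in the neutered and 2.28 to 4.25 in the intact dogs, and its part in the CDKN2C values was not tested.

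Within primary AGASAC, the 4 tumors with a sampled metastasis were compared with the 7 without. CDKN1B was at 170, 159, 186 and 200 CPM in the 4 and at 21.1 to 129 CPM in the 7 (median 46.9), without overlap. The log2FC was 1.49 (SE 0.43, unadjusted p = 0.00458, adjusted p = 1). CCND1 was at 590 to 1198 CPM in the 4 and at 121 to 710 CPM in the 7 (median 368), with a log2FC of 1.24 (SE 0.38, unadjusted p = 0.00638, adjusted p = 1). Neither was called, and the 1 gene called among 13242 (0.00755%) was not one of the 9. Unadjusted p values under 0.05 were found for 2 of 9 genes and 7.63% of all genes, and 1 of 9 genes did not overlap against 1.16% of all genes. All 7 tumors without a sampled metastasis belonged to the second series of sequencing file names, and the 3 with a known series among the 4 to the first, so that series and metastasis cannot be told apart. The metastases, of the first series, had 91.8 to 193 CPM of CDKN1B.

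Relations between the genes were computed within HGA and within primary AGASAC, 8 in all, on log2(CPM + 1). MDM2 and CDKN1A had a Pearson's r of 0.27 in HGA (permutation p = 0.422, Spearman's rho 0.09, permutation p = 0.81) and 0.12 in primary AGASAC (permutation p = 0.722, rho −0.01, permutation p = 0.989). Without the 2 samples farthest from the median of MDM2, r was −0.38 and −0.06. CCND1 and CCND2 had an r of 0.15 in HGA (permutation p = 0.734, rho 0.18, permutation p = 0.633) and −0.38 in primary AGASAC (permutation p = 0.249, rho −0.48, permutation p = 0.136). Without the 2 farthest samples, r was 0.17 and −0.49. None of these passed the Benjamini-Hochberg adjustment, where the adjusted p was 0.537 to 0.734 for r and 0.364 to 0.989 for rho.

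The mean of the replication and mitosis genes rose with 2 inhibitor genes across HGA by rank. With CDKN2C, r was 0.65 (permutation p = 0.0193, Benjamini-Hochberg adjusted 0.154) and rho 0.85 (permutation p = 0.00304, adjusted 0.0122). With CDKN1B, r was 0.64 (permutation p = 0.0511, adjusted 0.205) and rho 0.87 (permutation p = 0.00185, adjusted 0.0122). The 2 samples farthest from the median of the mean were HGA 4 and HGA 10, and without them r was 0.89 and 0.86. Among the HGA left, the mean was 2.81 to 3.04 in neutered and 2.28 to 2.67 in intact dogs. CDKN2C was at 37.1 to 48.5 CPM in the former and 13.2 to 21.6 CPM in the latter. Its relation to the mean and the difference by neutering therefore cannot be told apart there. CDKN1B was at 115 to 167 and 69.6 to 129 CPM. In primary AGASAC, r was 0.37 with CDKN2C (permutation p = 0.268, adjusted 0.537, rho 0.27, permutation p = 0.418, adjusted 0.668) and −0.32 with CDKN1B (permutation p = 0.339, adjusted 0.543, rho −0.41, permutation p = 0.213, adjusted 0.426). Without AGASAC primary 2 and 3, these were 0.40 and −0.76. Too few tumors of both types share an extraction batch for r within batches, and whether the relations differ between the tumor types was not tested.

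The other genes of the pathway were read from lists, first those of the kinases and inhibitors. Of all genes tested, 25.1% were called, 12.6% higher and 12.5% lower in HGA, and the counts of the lists stand beside these shares as a description with no test. Of 5 other INK4 and pocket protein genes tested, 1 was called, with a median log2FC of −0.01, where the median of all genes was −0.03. That was CDKN2B, the gene of the INK4 inhibitor p15, at 4.30 to 110 CPM in HGA (median 67.7) and 1.31 to 11.2 CPM in primary AGASAC (log2FC 3.14, SE 0.41, adjusted p = 1.22e-05). Of 12 tested CDK and E2F partners of G1, 1 was higher and 1 lower in HGA (median log2FC 0.09). CDK6, a kinase partner of the D cyclins, was at 18.1 to 57.1 CPM in HGA and 2.68 to 15.5 CPM in primary AGASAC, without overlap (log2FC 2.43, SE 0.31). E2F1, a transcription factor bound by RB1, was at 0.411 to 12.9 CPM in HGA and 5.55 to 21.1 CPM in primary AGASAC (log2FC −2.07, SE 0.45, adjusted p = 0.00607).

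Genes that control p27 and the D cyclins included 1 higher and 1 lower in HGA among 12 tested, with a median log2FC of 0.36. FBXW7, which encodes a subunit of a ubiquitin ligase, was at 114 to 377 CPM in HGA and 25.0 to 70.6 CPM in primary AGASAC (log2FC 2.17, SE 0.23). FOXO3, a transcription factor, was at 11.1 to 69.2 CPM in HGA and 82.4 to 165 CPM in primary AGASAC (log2FC −1.16, SE 0.22). The groups of both genes did not overlap. Of 19 tested replication and mitosis genes, 0 were higher and 4 lower in HGA, with a median log2FC of −1.35. They were AURKB, a mitotic kinase (log2FC −1.95, SE 0.34), and MCM2, MCM6 and MCM3 of the replicative helicase (−1.72, −1.56 and −1.33). The tumor types overlapped for all 4, and an unadjusted p under 0.05 was found for 15 of the 19, against 6477 of the 12070 genes tested.

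For each of the 9 genes, the 2 genes with the most similar pattern were taken by Pearson's r of log2(CPM + 1) over the 21 primary tumors after the mean of each type was taken off. CCND1 was most like TCEAL1 (r = 0.82) and LSM14A (0.81), and CCND2 most like TRMO and MYO9A (0.87 each, and 0.61 and 0.67 without HGA 4). CCND3 was most like KLC4 (0.88) and MEA1 (0.87), both in the run of neighbors of HGA 4, and without HGA 4 these fell to 0.55 and 0.53. CDKN1A was most like TMEM178B (0.75) and C15H1orf50 (0.71), CDKN1B most like PELI1 (0.80) and ANKH (0.77), and CDKN1C most like FAM20C (0.90) and CTSD (0.86). Without HGA 4 the values of CDKN1C fell to 0.77 each. CDKN2C was most like ETNK2 (0.78) and RBL2 (0.77), the latter a pocket protein gene related to RB1. RB1 was most like ADGRE5 (0.84) and TCP11L2 (0.77), and MDM2 most like RABL2B (0.75) and DYNLRB2 (0.73). Those of MDM2 were 0.64 and 0.66 without HGA 4. All these r values were computed after the genes were ranked on all 21 tumors. These are the highest of many values and are given as a description.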

How the data were processed

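FFPE tumor tissue of 25 dogs' tumor samples was sequenced with QuantSeq 3′. Per the study's methods, the authors trimmed reads with Cutadapt, aligned them to CanFam3.1 with STAR, and counted genes in rounds of featureCounts, the last with 3′ ends extended by 2 kilobases, with multi-mapped reads spread over their locations. They deposited counts per gene and sample without normalization. The table also holds, as a deposited signal, counts divided by size factors with their mean, and the log2 fold changes and p-values of the authors' own comparison. None of these were used here, and 0 sample columns were left unassigned. Versions are not given in the sources used here.

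Counts were analyzed with edgeR 4.0.16 in R 4.3.3, with TMM, filterByExpr (minimum count 10, total 15) and the quasi-likelihood test, fitted to the groups compared with no covariate. DESeq2 1.42.0, other scalings, filters and batches, and leaving out each sample were the alternatives. Single values were compared with SciPy 1.17.1. The members and gene lists were chosen with earlier results of these data known. All 9 members passed filterByExpr in every comparison. Where at least 10 counts were required in every sample, 8 were tested, without CDKN1C, which therefore has 33 alternatives. Named genes are the 9 members and, from 4 pathway lists, up to 4 called genes each with the largest log2FC. The lymph node stroma markers found are named as well. The results of some further listed genes are not reported here. The genes around CCND3, and leaving out both HGA 4 and HGA 10, were chosen after the values were seen.

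Extraction batches and file name series come from the study's sample tables. The labels tie each metastasis to the primary tumor of the same dog, and the pairs deviated together from their group means (r = 0.43 to 0.73 across genes, other dogs at most 0.09). No pair of samples of the same group agreed within sampling noise (chi-square per degree of freedom at least 12.2). Pairs across groups were not checked in this way. The samples of a group are separate dogs. The test was checked on simulated counts, where it called 156 of 193 genes changed by a log2FC of 2 between HGA and primary AGASAC and 61 of 183 between HGA and metastases. Counts per sample were 1562347 to 6389555, and 3 counts, the floor that a count of 0 allows, were 0.543 to 1.84 CPM. RefSeq names and gene order are of UU_Cfam_GSD_1.0, and no coordinates or sequences are given.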

Additional observations from a re-analysis of the deposited data

Results flagged for a closer look

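The spread within HGA (n = 10) and within the metastases (n = 4) was checked for the 9 genes and the CCND1 share, 10 measures each, by whether the gap of the highest or lowest sample to its neighbor took up an unusual part of the range (Dixon's test, 95% level). Chance alone marks about 1 in 20 groups if the values follow a normal distribution. That was not checked for these CPM values and shares, so the rate here can differ. Of the 10 measures, 3 were marked in HGA and 0 in the metastases. CCND3 was at 755.6 CPM in HGA 4, where the next HGA had 66.2 CPM. CCND2 was at 540.1 CPM in HGA 10, where the next HGA had 207 CPM. CDKN1A was at 145 CPM in HGA 2, where the next HGA had 62.2 CPM, and without HGA 2 its log2FC between HGA and primary AGASAC was −0.28 in place of 0.05 and called in neither case. Primary AGASAC, with 11 samples, was not checked, because critical values were used only for groups of up to 10 samples.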

How the results depend on the processing

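Of the 9 genes, 3 were called between HGA and primary AGASAC, and 3 to 4 with each sample left out in turn, where the fourth was CDKN1C without HGA 4 or HGA 10. Benjamini-Hochberg adjustment also called CDKN1C, 4 in all. Within extraction batches 5, 6 and 8, 0, 0 and 1 were called, with fewer samples in each. With the first series of file names, of 9 HGA and 3 primary AGASAC, 2 were called, and CCND3 was not. Between HGA and metastases, 2 were called and 2 to 3 with each sample left out. In the other comparisons 0 were called throughout, also with the dog as replicate block, which called 1 gene of all. Values of genes called in neither setting changed sign in 18 of 305 alternative values between HGA and primary AGASAC, 18 of 135 between metastasis and primary, 6 of 180 between HGA and metastases, 3 of 135 by neutering and 1 of 144 by sampled metastasis, and no called value did. The CCND1 share differed by −76.3 to −72.2 percentage points between HGA and primary AGASAC with each sample left out, by −77.7 in the first file name series and by −6.56 as a log2 ratio. Between metastasis and primary it was −1.13 to −0.58 with each dog left out. Of the 8 relations, 0 passed for r with all samples or with RLE, and 2 without the 2 farthest samples.

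Over all genes, calls between HGA and primary AGASAC fell from 3032 to 1452 with at least 10 counts required in every sample, and to 262, 637 and 338 within batches, where fewer genes or samples were tested. Between HGA and metastases, Benjamini-Hochberg adjustment gave 3536 in place of 2124. DESeq2 gave 12 in place of 0 between metastasis and primary, 25 in place of 0 by neutering and 34 in place of 1 by sampled metastasis. The counts of CDKN1C in HGA 4 (2) and of the low D cyclins in AGASAC (18 to 140) limit how firmly single values can be read.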
